A study of Mus musculus with 9 samples.

Results

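The data give 10 genes of the BCL2 family in mouse CD8+ T cells kept with one of 3 cytokines, IL-2, IL-15 and IL-21. The genes were Bcl2, Bcl2l1, Bcl2l11, Mcl1, Bcl2a1a, Bid, Bad, Bak1, Bbc3 and Pmaip1. They were chosen by symbol from the annotation of the array, with earlier results of these data known. All 10 were measured, by 23 probes, among 17498 genes in all. The gene lists used further below were also chosen with such results known. Each cytokine was given at 10 ng/ml for 4 days, untreated cells went without, and both then had 4 h of restimulation without any cytokine. On each of 9 two-colour arrays a cytokine sample and an untreated sample shared the slide, and every cytokine had 3 biological replicates. The labels do not give the mouse strain, the age of the mice, the stimulus or whether the 3 arrays of a replicate number share one untreated RNA. All values are log2 ratios, where a value of 1 is a doubling over untreated cells.

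BCL2 family proteins decide whether a cell opens its mitochondrial outer membrane and dies by apoptosis. The anti-apoptotic members, BCL2, BCL-XL (gene Bcl2l1), MCL1 and A1 (gene Bcl2a1a), hold the pore-forming effectors BAK (gene Bak1) and BAX in check. BH3-only proteins, among them BIM (gene Bcl2l11), BID, BAD, PUMA (gene Bbc3) and NOXA (gene Pmaip1), bind the anti-apoptotic members and free or activate the effectors. In T cells, cytokines that signal through the common gamma chain are known to sustain survival partly through BCL2 and MCL1, loss of such cytokines to act through BIM, and antigen receptor signals to induce A1.

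The direction of the ratios is not settled. Cytokine-treated RNA is in Cy5 throughout according to the sample labels, but the design text of the series and a deposited list state that the dyes were exchanged in replicates 2 and 3. Over all probes, r was under -0.3 for 3 of 36 pairs of arrays, each pair of opposite stated orientation, with -0.35 as the lowest value. Within one stated orientation the lowest r was -0.03. For IL-2, replicate 1 gave r of 0.06 and -0.26 against replicates 2 and 3. The same pairs gave 0.02 and -0.09 for IL-15 and -0.03 and -0.28 for IL-21. Replicate 2 against replicate 3 gave 0.20 for IL-2, 0.17 for IL-15 and 0.23 for IL-21. A dye effect drops out when one cytokine is subtracted from another inside a replicate. IL-21 minus IL-2 then correlated between replicates at 0.20, 0.15 and 0.11. IL-21 minus IL-15 gave 0.12, 0.14 and 0.17, and IL-15 minus IL-2 gave 0.04, -0.04 and -0.02. All arrays were therefore taken to run as cytokine over untreated, and with replicates 2 and 3 turned instead, 43 of the 60 changes of the members had the opposite sign. IL-2 replicate 3 had the widest spread, with 13.6% of probes beyond 1 in either direction against 4.1% to 6.5% on the other arrays.

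No member passed the test in any comparison. With limma 0 of the 10 genes reached an adjusted p of 0.05 for IL-2, IL-15 or IL-21 against untreated cells, where 0.8%, 0.126% and 0% of all genes did. Likewise 0 of 10 passed for IL-21 versus IL-2, IL-21 versus IL-15 and IL-15 versus IL-2, where 0.08%, 0.0171% and 0% of all genes passed. The smallest adjusted p of the 60 tests was 0.617, for Pmaip1 with IL-2. At an unadjusted p under 0.05 there were 0, 0 and 2 members against untreated cells, where 8.82%, 7.25% and 6.05% of all genes lay, and 2, 0 and 0 between cytokines, where 5.98%, 5.67% and 1.44% lay. The genes were Bcl2l11 and Bcl2a1a for IL-21 and Mcl1 and Bcl2l11 for IL-21 versus IL-2.

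Replicate numbers were taken as pairing the arrays. With the replicate number as a block the smallest adjusted p was 0.0912, for Bcl2a1a with IL-2. In the blocked fit 0 of 10 members passed in each of the 6 comparisons, where 1.95%, 0.697% and 0.131% of all genes passed against untreated cells and 0.526%, 0.183% and 0% between cytokines. Unadjusted p-values under 0.05 then numbered 2, 0 and 2 (background 16.6%, 15.2% and 14.3%) and 2, 1 and 1 (background 12.5%, 11.7% and 4.75%). The blocked fit does not count, in its tests against untreated cells, what varies jointly on the arrays of one replicate. The 95% intervals of the 60 changes, which are not adjusted for the number of tests, all lay between -1.26 and 1.07 without the block and between -0.95 and 0.95 with it. Only 1 of the 90 member values on single arrays went beyond 1, Bid on IL-2 replicate 3, where 11.5% of all genes did. On the other arrays 3.02% to 5.65% of all genes went beyond 1.

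**Figure D1:**
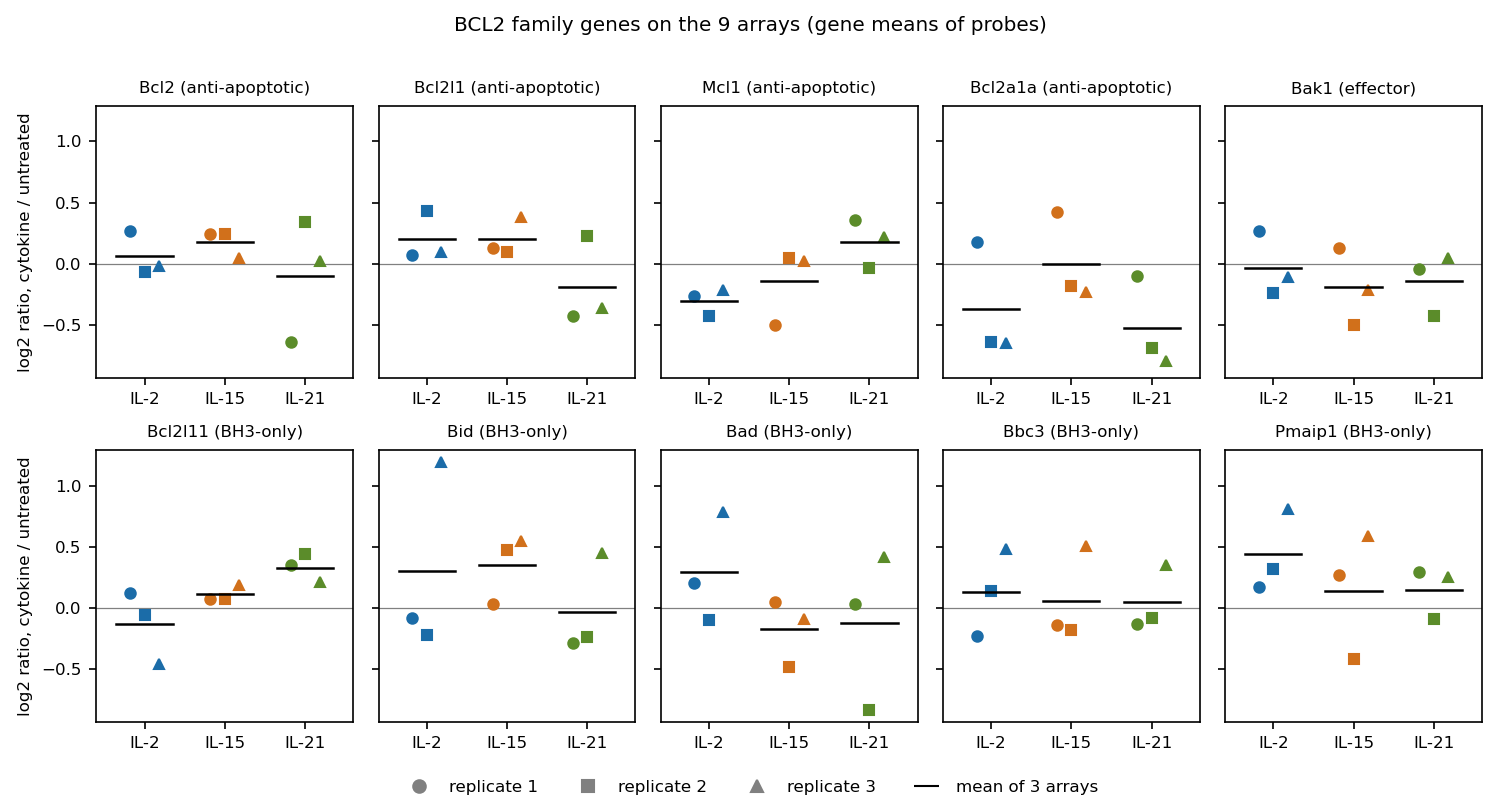
Log2 ratio of cytokine-treated over untreated cells (vertical axis) for each of the 10 genes, as the mean of its probes, by cytokine. Each point is 1 array, its shape gives the replicate number and the black line is the mean of 3 arrays. Most points lie within 0.5 of 0, and Bid on IL-2 replicate 3 at 1.19 is the highest.

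A pair of sequence sets is shown as background. The first is shown because the annotation lists 2 probes under more than one A1 gene. Mice carry several A1 genes, and the windows around their starts (250 bases before to 50 after, RefSeq, GRCm38.p6) are close to identical, all 4 lying on chromosome 9. Capitals mark bases that differ from the Bcl2a1a window inside the aligned stretch.
Bcl2a1a (chr9:88956670-88956969, plus strand): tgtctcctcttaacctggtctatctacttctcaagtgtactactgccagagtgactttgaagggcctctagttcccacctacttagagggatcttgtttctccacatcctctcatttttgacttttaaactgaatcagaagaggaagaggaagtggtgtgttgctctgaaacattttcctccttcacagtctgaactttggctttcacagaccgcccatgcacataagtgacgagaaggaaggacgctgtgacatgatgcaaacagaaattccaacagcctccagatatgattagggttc
Bcl2a1b (chr9:89199023-89199322, plus strand): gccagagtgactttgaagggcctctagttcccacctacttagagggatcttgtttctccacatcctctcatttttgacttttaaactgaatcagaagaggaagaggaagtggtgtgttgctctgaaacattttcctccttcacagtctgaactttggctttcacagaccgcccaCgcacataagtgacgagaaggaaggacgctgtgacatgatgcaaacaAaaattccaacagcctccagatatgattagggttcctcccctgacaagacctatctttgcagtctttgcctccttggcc
Bcl2a1d (chr9:88731801-88732100, minus strand): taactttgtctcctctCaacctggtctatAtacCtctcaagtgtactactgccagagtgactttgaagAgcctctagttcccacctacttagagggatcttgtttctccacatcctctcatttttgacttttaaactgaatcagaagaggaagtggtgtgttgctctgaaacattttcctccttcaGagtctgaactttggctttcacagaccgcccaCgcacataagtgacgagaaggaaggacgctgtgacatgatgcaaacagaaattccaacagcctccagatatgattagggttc
Bcl2a1c (chr9:114329885-114330184, plus strand): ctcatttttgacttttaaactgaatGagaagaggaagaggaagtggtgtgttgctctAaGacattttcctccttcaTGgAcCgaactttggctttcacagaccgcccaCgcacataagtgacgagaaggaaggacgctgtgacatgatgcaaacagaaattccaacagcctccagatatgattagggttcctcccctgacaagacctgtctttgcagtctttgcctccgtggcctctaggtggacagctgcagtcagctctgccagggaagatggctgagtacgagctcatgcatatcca
Against Bcl2a1a, the Bcl2a1b window matched 254 of 256 aligned bases (99.2%), that of Bcl2a1d 288 of 294 (98%), with 6 further bases present in Bcl2a1a alone, and that of Bcl2a1c 182 of 190 (95.8%). Bcl2a1c is the most different of the 3 in this window. These windows lie mostly upstream of the transcript and say nothing of what a probe binds, and probe sequences were not used here.

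The second is the first of the 2 start windows listed for Bcl2l11. It is shown because BIM is the member whose IL-21 arrays were all above 0 in the direction taken here. With replicates 2 and 3 turned, the IL-21 change of Bcl2l11 was -0.10. FOXO factors are known to induce BIM when growth factor signals are lost, and a part of theirs in these values was not tested. Capitals mark a match to the FOXO motif TGTTTAC, on the minus strand, which begins 227 bases before the start. The other start window of Bcl2l11 held no match to it.
Bcl2l11 (chr2:128125788-128126087, plus strand): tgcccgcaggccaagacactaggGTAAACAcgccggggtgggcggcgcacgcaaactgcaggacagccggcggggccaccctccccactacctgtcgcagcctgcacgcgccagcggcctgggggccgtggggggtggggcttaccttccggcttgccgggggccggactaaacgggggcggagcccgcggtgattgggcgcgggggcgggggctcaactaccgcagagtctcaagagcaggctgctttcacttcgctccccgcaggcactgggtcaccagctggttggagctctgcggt
Windows were listed for 9 of the 10 members, all except Pmaip1, 15 in all. Searched on both strands, the FOXO motif was in 2 of the 15, of Bcl2l11 and Bbc3, and in 3.65% of all 32851 windows. The STAT motif TTCNNNGAA was in 0 of the 15, against 8.3% of all windows, and the NF-kappaB consensus was in 2 of the 15, of Bcl2l1 and Bbc3, against 4.51%. A match describes letters in this window and was not tested as a binding site.

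Among the anti-apoptotic genes, Bcl2a1a had one order of the cytokines in every replicate, with IL-15 highest, IL-2 next and IL-21 lowest, if all arrays run as cytokine over untreated. With replicates 2 and 3 turned, that order is reversed in these replicates, and the changes become 0.18 for IL-21 versus IL-15 and -0.21 for IL-15 versus IL-2. With IL-15 its log2 ratios were 0.42, -0.18 and -0.23 in replicates 1, 2 and 3. With IL-2 they were 0.18, -0.64 and -0.65, and with IL-21 -0.10, -0.69 and -0.79. The 3 arrays of replicate 1 were above the 6 others. Replicate 1 is also the one with the other stated dye orientation, so replicate and dye cannot be told apart here. One order in all 3 replicates was found for 1 of 10 members and for 5.49% of all genes, and replicate 1 lay apart from the other arrays for 1 of 10 members and 19.1% of all genes.

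Within a replicate, IL-21 lay below IL-15 for Bcl2a1a by nearly the same amount each time, at -0.52, -0.51 and -0.56. The change was -0.53 ± 0.31 (SE; adjusted p 0.999 with limma, 0.188 with the replicate block), with a 95% interval of -1.23 to 0.17, or -0.82 to -0.24 in the blocked fit. IL-15 lay above IL-2 by 0.24, 0.46 and 0.42, a change of 0.38 ± 0.31 (SE; adjusted p 1, 0.898 with the block). It was 0.65 without IL-2 replicate 1, 0.17 without IL-15 replicate 1 and 0.24 without either IL-2 replicate 2 or IL-2 replicate 3. IL-21 and IL-2 were close, at -0.28, -0.05 and -0.14. Against untreated cells, IL-21 had -0.52 ± 0.22 (SE; adjusted p 0.819, 0.104 with the block), IL-2 had -0.37 ± 0.22 (SE; adjusted p 0.747, 0.0912 with the block), and IL-15 had a mean of 0.00. The value for IL-2 was -0.65 without IL-2 replicate 1, -0.24 without IL-2 replicate 2 and -0.23 without IL-2 replicate 3.

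Other probes of A1 genes matched it in part. A further 2 probes, which the annotation lists under several A1 genes, stayed outside the gene mean, and another is listed under Bcl2a1c alone. Over all 4 probes the difference of IL-21 and IL-15 ran from -0.88 to -0.52 in replicate 1, from -0.51 to -0.39 in replicate 2 and from -0.81 to -0.54 in replicate 3. The difference of IL-15 and IL-2 ran from 0.15 to 0.31, from 0.19 to 0.46 and from 0.37 to 0.72. Both differences therefore had one sign in all 3 replicates and all 4 probes. IL-21 minus IL-2 did not, since in replicate 3 it ran from -0.29 to 0.18, and the Bcl2a1c probe had -0.15 with IL-21 and -0.33 with IL-2 there. These probes may bind the same RNAs and are not independent measurements. The Bcl2a1c probe had 0.49, 0.17 and 0.39 with IL-15 and -0.39, -0.26 and -0.15 with IL-21, so its arrays of these cytokines did not overlap, but its difference of -0.62 ± 0.19 (SE; adjusted p 0.547, 0.253 with the block) did not pass limma.

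**Figure D2:**
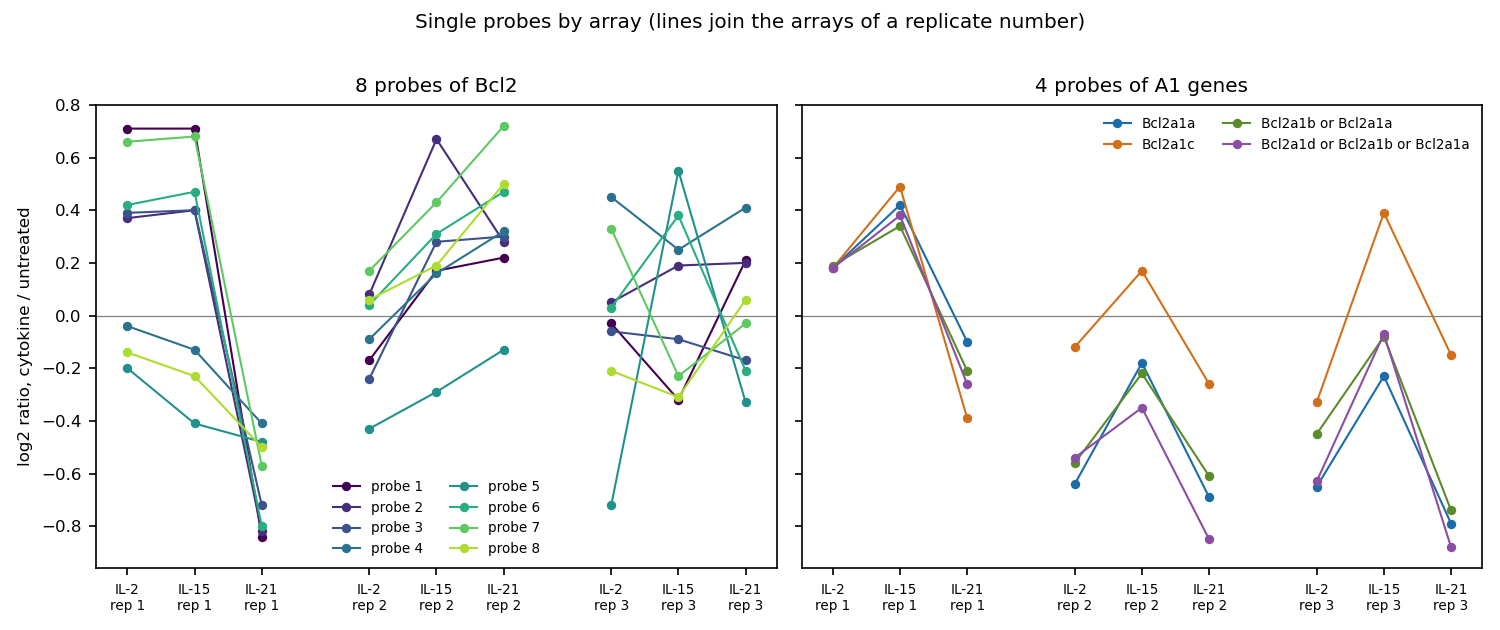
Log2 ratio of cytokine-treated over untreated cells (vertical axis) on each of the 9 arrays for the 8 probes of Bcl2 (left) and the 4 probes of A1 genes (right), where lines join the 3 arrays of a replicate number. In the direction taken here A1 probes are highest at IL-15 in every replicate. In this direction all 8 Bcl2 probes have IL-21 below IL-2 in replicate 1 and above it in replicate 2.

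Bcl2, the founding survival gene of the family, gave a different pattern in each replicate in the direction taken here. In replicate 1 its log2 ratios were 0.27 with IL-2, 0.24 with IL-15 and -0.64 with IL-21. In replicate 2 they were -0.07, 0.24 and 0.34, and in replicate 3 -0.02, 0.05 and 0.02. IL-21 thus lay 0.91 below IL-2 in replicate 1 (difference -0.91), above it in replicate 2 (0.41) and level with it in replicate 3 (0.04). With replicates 2 and 3 turned, IL-21 would lie below IL-2 in all 3, though only slightly in replicate 3. The change for IL-21 versus IL-2 was -0.15 ± 0.25 (SE; adjusted p 0.999 with limma), with a 95% interval of -0.73 to 0.42. With IL-15 the mean of the probes was above 0 on all 3 arrays, with a mean of 0.18 ± 0.11 (SD, n = 3). In limma this change had an SE of 0.18 and an adjusted p of 0.957. Of the 8 probes, 5, 7 and 4 were above 0 with IL-15 in replicates 1, 2 and 3.

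Bcl2 had 8 probes, and replicate 1 split them. The 5 probes listed under the transcript NM_009741 alone with the highest IL-2 values (probes 1, 2, 3, 6 and 7) had 0.37 to 0.71 with IL-2 and -0.84 to -0.57 with IL-21 in replicate 1. The other three had -0.20 to -0.04 with IL-2 and -0.50 to -0.41 with IL-21, and of these probe 5 is listed under the transcript NM_177410 alone and probe 8 under both. In replicate 2 all 8 probes had IL-21 above IL-2, by 0.20 to 0.55. The opposite order in replicates 1 and 2 was therefore shared by all 8 probes, with IL-21 minus IL-2 between -1.55 and -0.28 in replicate 1. With replicates 2 and 3 turned, all 8 would have the same order in replicates 1 and 2. In replicate 3 the probes differed in sign, from -0.36 to 0.39.

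Bcl2l1, which encodes BCL-XL, was above 0 on all 6 arrays of IL-2 and IL-15 and below 0 on 2 of the 3 IL-21 arrays. Its log2 ratios were 0.07, 0.43 and 0.10 with IL-2, 0.13, 0.10 and 0.38 with IL-15, and -0.43, 0.23 and -0.36 with IL-21. IL-21 lay below IL-2 in all 3 replicates, at -0.51, -0.20 and -0.45, and below IL-15 in replicates 1 and 3. The change for IL-21 versus IL-2 was -0.39 ± 0.22 (SE; adjusted p 0.992, 0.467 with the block), with a 95% interval of -0.89 to 0.11. With replicates 2 and 3 turned the value was 0.05. Its 3 probes agreed on the sign of that difference in every replicate but not on its size. Probe 2 had -0.22, -0.03 and -0.14, while probe 3 had -1.12, -0.44 and -0.71.

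Mcl1 encodes a short-lived survival protein, and with IL-21 it lay above IL-2. Its 1 probe had -0.26, -0.43 and -0.21 with IL-2, -0.50, 0.05 and 0.02 with IL-15, and 0.36, -0.03 and 0.22 with IL-21. All arrays of IL-2 were below all arrays of IL-21, and arrays of IL-15 overlapped both. The change for IL-21 versus IL-2 was 0.48 ± 0.21 (SE; adjusted p 0.802, 0.384 with the block), with a 95% interval of 0.02 to 0.95, and with replicates 2 and 3 turned it was -0.07. With IL-2 against untreated cells Mcl1 had -0.30 ± 0.15 (SE; adjusted p 0.63).

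Bak1, the one effector among the members, varied more by replicate than by cytokine. Its probe had 0.27, -0.24 and -0.11 with IL-2, 0.13, -0.50 and -0.21 with IL-15, and -0.04, -0.43 and 0.05 with IL-21. In the direction taken here, IL-15 lay slightly below IL-2 in all 3 replicates, at -0.14, -0.26 and -0.10. The 3 groups overlapped, and the change for IL-15 versus IL-2 was -0.17 ± 0.23 (SE; adjusted p 1). Bax, the partner of BAK, was not analysed here.

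Of the BH3-only genes, Bcl2l11 had its highest values with IL-21, in the direction taken here. Its log2 ratios were 0.35, 0.44 and 0.21 with IL-21, 0.07, 0.07 and 0.19 with IL-15, and 0.12, -0.06 and -0.46 with IL-2. All arrays of IL-21 were above all arrays of both other cytokines. Against untreated cells IL-21 had 0.33 ± 0.13 (SE; adjusted p 0.807, 0.298 with the block), with a 95% interval of 0.03 to 0.64. For IL-21 versus IL-2 the change was 0.47 ± 0.19 (SE; adjusted p 0.753, 0.325 with the block), and the differences in the 3 replicates were 0.22, 0.50 and 0.67. For IL-21 versus IL-15 it was 0.23 ± 0.19 (SE; adjusted p 0.999), and the differences were 0.28, 0.37 and 0.02. With replicates 2 and 3 turned these changes of Bcl2l11 became -0.10 against untreated cells, -0.32 against IL-2 and -0.04 against IL-15.

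Groups that did not overlap were 2 of 10 members for IL-21 versus IL-2 (Mcl1 and Bcl2l11) and 1 of 10 for IL-21 versus IL-15 (Bcl2l11), where 9.72% and 10.7% of all genes did not overlap. No member was free of overlap for IL-15 versus IL-2, where 4.41% of all genes were. The 2 probes of Bcl2l11, listed under different transcripts, disagreed in part. In replicate 1 the first had 0.67 and the second 0.03 with IL-21, and in replicate 3 the first had -0.12 and the second 0.54. Both had IL-21 above IL-2 by 0.50 or more in replicates 2 and 3, and in replicate 1 the differences were 0.50 and -0.05.

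The values of BIM and A1 can be set against each other on the same array. The log2 ratio of Bcl2l11 minus that of Bcl2a1a was 0.45, 1.13 and 1.00 with IL-21 in replicates 1, 2 and 3. It was -0.05, 0.58 and 0.19 with IL-2 and -0.36, 0.25 and 0.42 with IL-15. IL-21 was the highest of the 3 in every replicate, as the values of both genes above already give, and with replicates 2 and 3 turned it would be the lowest in these. This pair was chosen after its values were seen and was not tested, and the difference is one of ratios, not of levels.

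Pmaip1, which encodes NOXA, was above 0 on all 3 arrays of IL-2, at 0.17, 0.32 and 0.81. With IL-15 it had 0.27, -0.42 and 0.59 and with IL-21 0.29, -0.09 and 0.25, so all 3 groups overlapped. The change for IL-2 was 0.44 ± 0.20 (SE; adjusted p 0.617, 0.193 with the block), with a 95% interval of -0.03 to 0.90. With replicates 2 and 3 turned this change was -0.32. Its 3 probes spanned up to 0.87 on 1 array. On IL-2 replicate 2 they had -0.17, 0.70 and 0.45.

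Bid and Bad, a BH3-only protein cleaved by caspase 8 and one held inactive by survival kinases, were both highest on IL-2 replicate 3. Bid had -0.08, -0.22 and 1.19 with IL-2, 0.03, 0.47 and 0.55 with IL-15, and -0.29, -0.24 and 0.45 with IL-21. Bad had 0.20, -0.10 and 0.78 with IL-2, 0.05, -0.48 and -0.09 with IL-15, and 0.03, -0.83 and 0.42 with IL-21. Without IL-2 replicate 3 the IL-2 mean of Bid was -0.15 and that of Bad was 0.05, against 0.30 and 0.29 with it. In the direction taken here, IL-21 lay below IL-2 in all 3 replicates for both genes. The 2 changes were -0.32 ± 0.39 (SE; adjusted p 0.999) and -0.42 ± 0.35 (SE; adjusted p 0.999). Bad also had IL-15 below IL-2 each time, at -0.15, -0.38 and -0.86, a change of -0.46 ± 0.35 (SE; adjusted p 1).

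Bbc3, which encodes the p53-responsive protein PUMA, followed the replicate. Its values were -0.23 with IL-2, -0.14 with IL-15 and -0.13 with IL-21 in replicate 1, then, in the same order, 0.14, -0.18 and -0.08 in replicate 2 and 0.48, 0.51 and 0.35 in replicate 3. All 3 cytokines were thus below 0 in replicate 1 and above 0 in replicate 3. With replicates 2 and 3 turned, they would be below 0 in both. The changes against untreated cells were between 0.05 and 0.13, each with an SE of 0.19, and those between cytokines between -0.09 and -0.02. Its 2 probes differed by as much as 1.12 on 1 array.

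**Figure D3:**
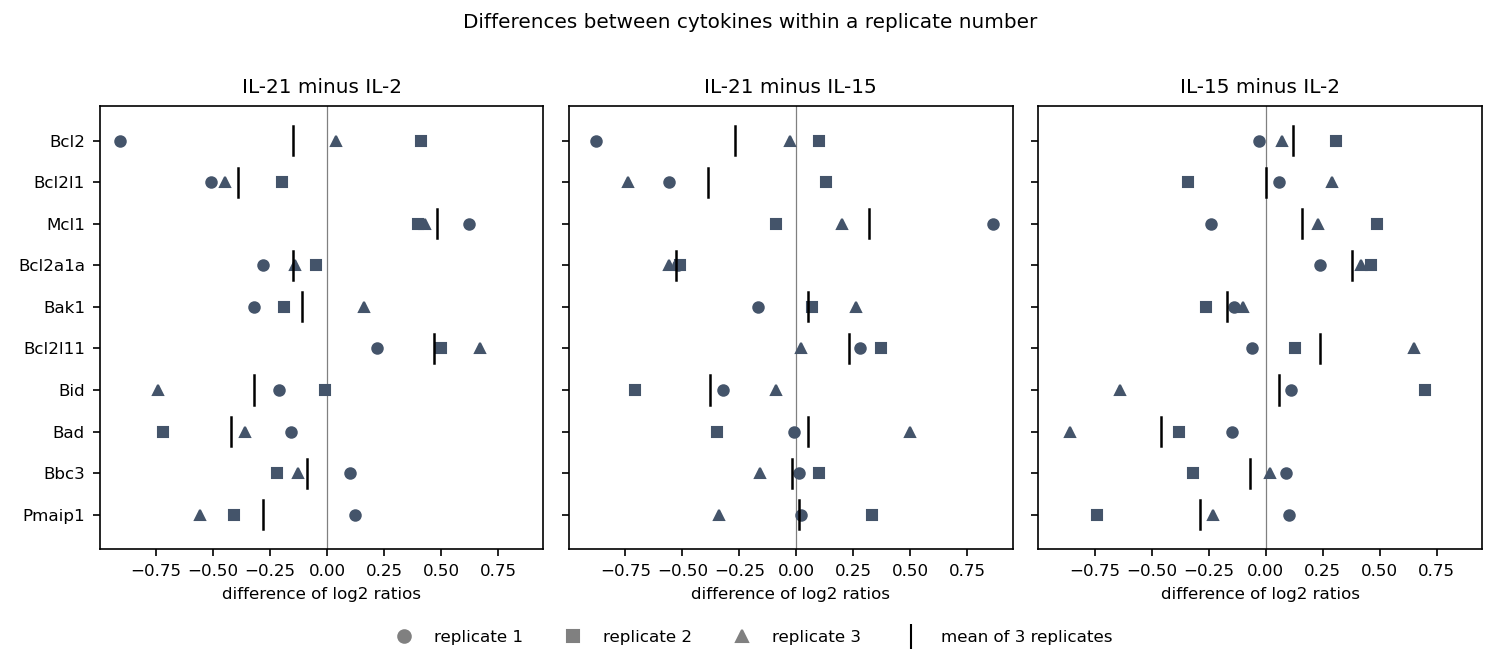
Difference of log2 ratios between 2 cytokines (horizontal axis) for each gene, where each point is 1 replicate number and the black line is the mean of 3. For Bcl2a1a the 3 points of IL-21 minus IL-15 lie between -0.56 and -0.51, while those of Bcl2 for IL-21 minus IL-2 run from -0.91 to 0.41.

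Counted by sign in the direction taken here, IL-21 versus IL-2 had the most members with one sign in all 3 replicates. Mcl1 and Bcl2l11 were higher (13.1% of all genes) and Bcl2l1, Bcl2a1a, Bid and Bad lower (23.2%), 6 of 10 in all, where 36.3% of all genes had one sign. For IL-21 versus IL-15 there were 3 of 10 (Bcl2l11 higher, 16.4% of all genes, Bcl2a1a and Bid lower, 20.4%; background 36.8%) and for IL-15 versus IL-2 3 of 10 (Bcl2a1a higher, 9.72% of all genes, Bak1 and Bad lower, 15.4%; background 25.2%). Against untreated cells one sign on all 3 arrays was found for 3 of 10 members with IL-2 (background 24.3%), 4 of 10 with IL-15 (background 27.7%) and 2 of 10 with IL-21 (background 24%). With IL-2 these were Bcl2l1 and Pmaip1 above 0 (15.3% of all genes) and Mcl1 below 0 (9.06%), and with IL-21 Bcl2l11 above 0 (11.5%) and Bcl2a1a below 0 (12.4%). The 4 with IL-15 were Bcl2, Bcl2l1, Bcl2l11 and Bid, all above 0 (15.1%). With replicates 2 and 3 turned, every gene counted here would lose its one sign. Other genes would gain one, among them Bcl2 for IL-21 versus IL-2.

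The members went both ways, and their median change was 0.10 for IL-2, 0.09 for IL-15 and -0.06 for IL-21, beside 0.05, 0.00 and 0.00 over all genes tested. For IL-21 versus IL-2 it was -0.15 beside -0.05, for IL-21 versus IL-15 0.00 beside 0.00, and for IL-15 versus IL-2 0.03 beside -0.04. By role, the 4 anti-apoptotic genes had a median of -0.12 with IL-2, 0.09 with IL-15 and -0.14 with IL-21. The 5 BH3-only genes had 0.29, 0.11 and 0.05. Between cytokines the anti-apoptotic median was -0.15 for IL-21 versus IL-2, -0.33 for IL-21 versus IL-15 and 0.14 for IL-15 versus IL-2. That of the BH3-only genes was -0.28, 0.01 and -0.07 in the same comparisons.

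On single arrays the balance of the roles moved with the replicate. The anti-apoptotic median minus the BH3-only median was 0.00 with IL-2, 0.14 with IL-15 and -0.30 with IL-21 in replicate 1 and, in the same order, -0.19, 0.25 and 0.18 in replicate 2. In replicate 3 it was -0.89, -0.47 and -0.52, below 0 for every cytokine. IL-15 had the highest value in each replicate, but with replicates 2 and 3 turned it would have the lowest in these. This comparison was made after the values were seen and was not tested.

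**Figure D4:**
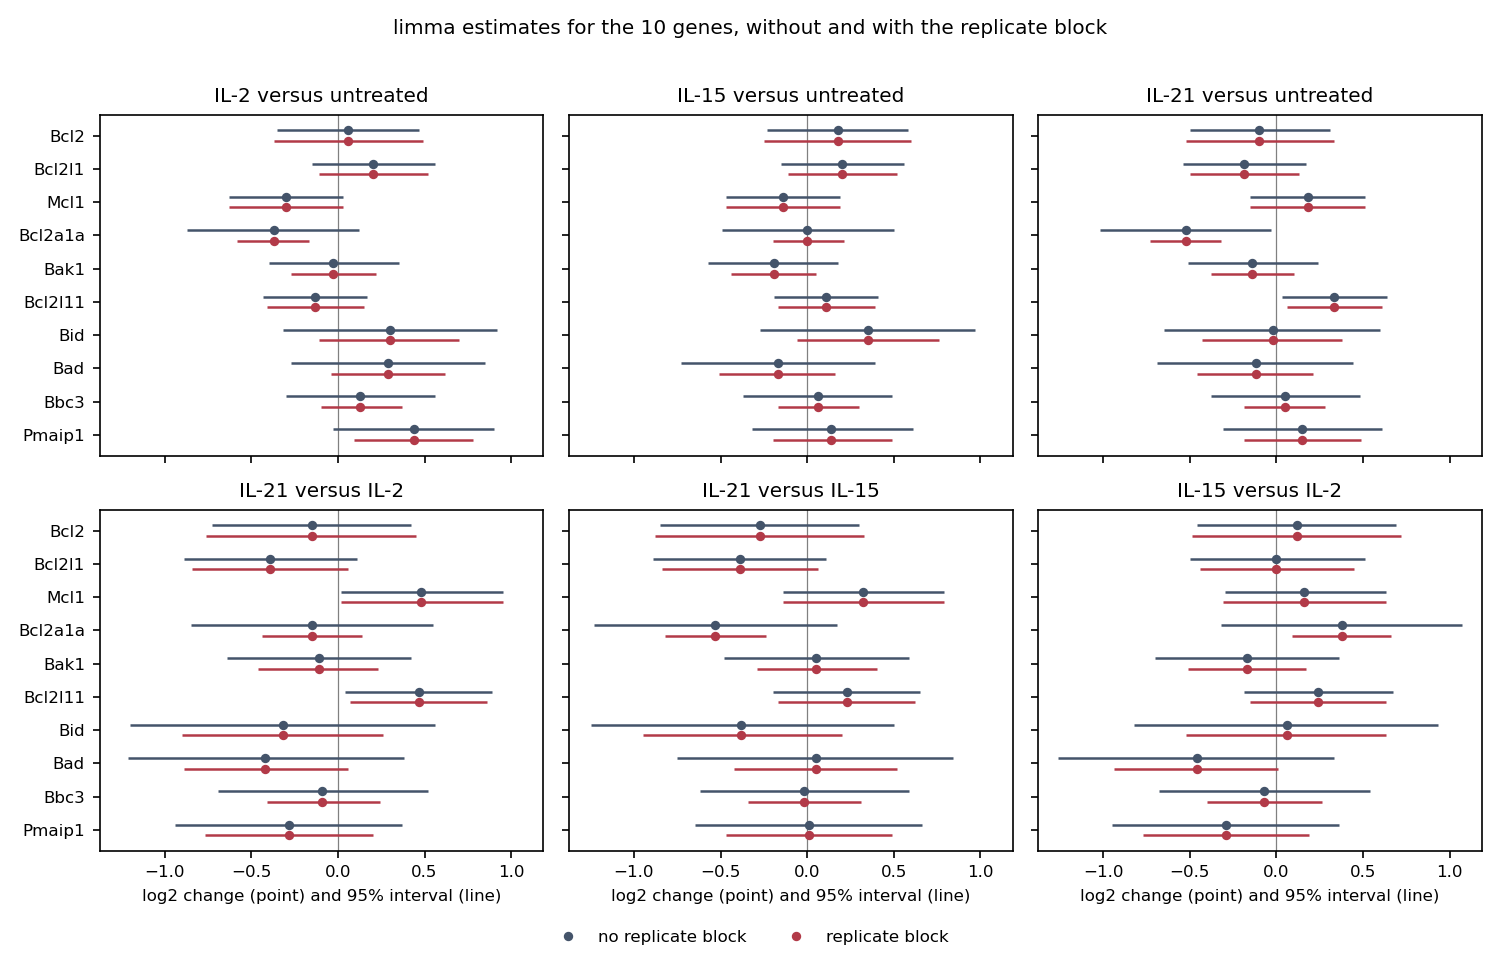
limma estimates of the log2 change (points) with 95% intervals not adjusted for multiple testing (lines) for the 10 genes in the 6 comparisons, without (dark blue-grey) and with (red) the replicate block. Blocking narrows the intervals of Bcl2a1a, whose estimate for IL-21 versus untreated is -0.52, and leaves those of Bcl2 about as wide.

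The rest of the family gave no call either. Of 16 further family genes 13 were measured, and none passed in any of the 6 comparisons, with or without the replicate block. Over all genes, 0% to 0.8% passed without the block and 0% to 1.95% with it, depending on the comparison. Their median change was 0.11 with IL-2, -0.03 with IL-15 and -0.09 with IL-21. The smallest p-values after Bcl2a1c belonged to Bnip3l, a mitophagy receptor gene, and Bcl2l2, which encodes the survival protein BCL-W. Bnip3l had 0.04, 0.29 and 0.65 with IL-2 and -0.47, -0.42 and -0.11 with IL-15, a change for IL-15 versus IL-2 of -0.66 ± 0.24 (SE; adjusted p 1, 0.898 with the block). Bcl2l2 had -0.24 ± 0.13 (SE; adjusted p 0.844) with IL-21.

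Casp6, which encodes an executioner caspase, had 0.72, 1.06 and 0.87 with IL-21, -0.51, -0.48 and -0.28 with IL-15 and 0.01, 0.14 and 0.32 with IL-2. The 3 groups did not overlap. For IL-21 versus IL-15 the change was 1.30 ± 0.17 (SE; adjusted p 0.0969 with limma, 0.0329 with the replicate block) and for IL-21 versus untreated cells 0.88 ± 0.12 (SE; adjusted p 0.12, 0.0394 with the block). With the replicate as a random block the adjusted p was 0.00773 for IL-21 versus IL-15 and 0.113 for IL-21 versus untreated cells. In blocked fits without replicate 1, 2 or 3 the adjusted p for IL-21 versus IL-15 was 0.531, 0.273 and 0.356, and for IL-21 versus untreated cells 0.249, 0.47 and 0.16. With replicates 2 and 3 turned, Casp6 had -0.49 and -0.40 in these comparisons and was not called. Its 2 probes had means of 0.74 and 1.02 with IL-21 and of -0.43 and -0.42 with IL-15.

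Of 16 genes of the mitochondrial death machinery 14 were measured and none passed without the block, where at most 0.8% of all genes passed. With the block Vdac1 passed for IL-2, where 1.95% of all genes passed. Casp6 passed with it for IL-21 and for IL-21 versus IL-15, where 0.131% and 0.183% of all genes passed. Vdac1, a channel gene of the outer membrane, had 0.80, 1.08 and 0.37 with IL-2, a change of 0.75 ± 0.20 (SE; adjusted p 0.185, 0.0399 with the block). Its adjusted p was 0.153 with the replicate as a random block and 0.135, 0.281 and 0.18 in blocked fits without replicate 1, 2 or 3, and the value was -0.22 with replicates 2 and 3 turned. Gpx4, which encodes a lipid peroxide-reducing enzyme, had 0.32, 1.79 and 1.47 with IL-2, a change of 1.19 ± 0.25 (SE; adjusted p 0.0862, 0.0639 with the block).

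All 6 genes for inhibitors of apoptosis were measured, and Birc5 rose with IL-2. It was the 1 of 6 called for IL-2, where 0.8% of all genes were called (1.95% with the block). With the block it was also called for IL-15 and for IL-21 versus IL-2, where 0.697% and 0.526% of all genes were. Birc5 encodes survivin, which is made in dividing cells and serves in mitosis as well as in survival. It had 1.81, 1.47 and 1.13 with IL-2, 1.93, 0.85 and 0.87 with IL-15 and -0.22, -0.13 and -0.35 with IL-21. The change was 1.47 ± 0.22 (SE; adjusted p 0.0254) for IL-2. It was 1.22 ± 0.22 (SE; adjusted p 0.0906, 0.0359 with the block) for IL-15 and -1.70 ± 0.31 (SE; adjusted p 0.101, 0.0425 with the block) for IL-21 versus IL-2. With the replicate as a random block the adjusted p was 0.102 for IL-15 and 0.015 for IL-21 versus IL-2. The call for IL-2 was lost without replicate 1, 2 or 3, at adjusted p 0.0515, 0.475 and 0.365, and with replicates 2 and 3 turned the value was -0.26. Turned, Birc5 had 0.07 for IL-15 and 0.35 for IL-21 versus IL-2, neither called.

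In the same list Cflar, the gene of the caspase 8 inhibitor c-FLIP, had -0.26, -0.78 and -1.17 with IL-2, a change of -0.73 ± 0.16 (SE; adjusted p 0.102). Birc2, which encodes cIAP1, had 0.59, 0.57 and 0.19 with IL-21, a change of 0.45 ± 0.14 (SE; adjusted p 0.684). Neither passed, with or without the block.

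Of 37 upstream signalling genes and regulators of the family 34 were measured and none passed without the block (at most 0.8% of all genes). Cebpb passed with the block for IL-2 and IL-15, where 1.95% and 0.697% of all genes passed. Cebpb, a transcription factor gene, had 0.81, 1.30 and 1.55 with IL-2, 1.33, 1.58 and 1.65 with IL-15 and -0.65, 0.76 and 0.30 with IL-21. The changes were 1.22 ± 0.25 (SE; adjusted p 0.0756, 0.0224 with the block) for IL-2 and 1.52 ± 0.25 (SE; adjusted p 0.0738, 0.0206 with the block) for IL-15. With the replicate as a random block the adjusted p was 0.0695 and 0.0652. In blocked fits without replicate 1, 2 or 3 it was 0.0701, 0.114 and 0.207 for IL-2 and 0.266, 0.116 and 0.161 for IL-15. With replicates 2 and 3 turned the Cebpb values were -0.68 and -0.63, and neither was called. Rela, which encodes an NF-kappaB subunit, had -0.23, -1.10 and -1.25 with IL-2, a change of -0.86 ± 0.19 (SE; adjusted p 0.101). Casp8, whose product cleaves BID, had 0.76, 0.38 and 0.55 with IL-15, a change of 0.56 ± 0.15 (SE; adjusted p 0.264) for IL-15.

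**Figure D5:**
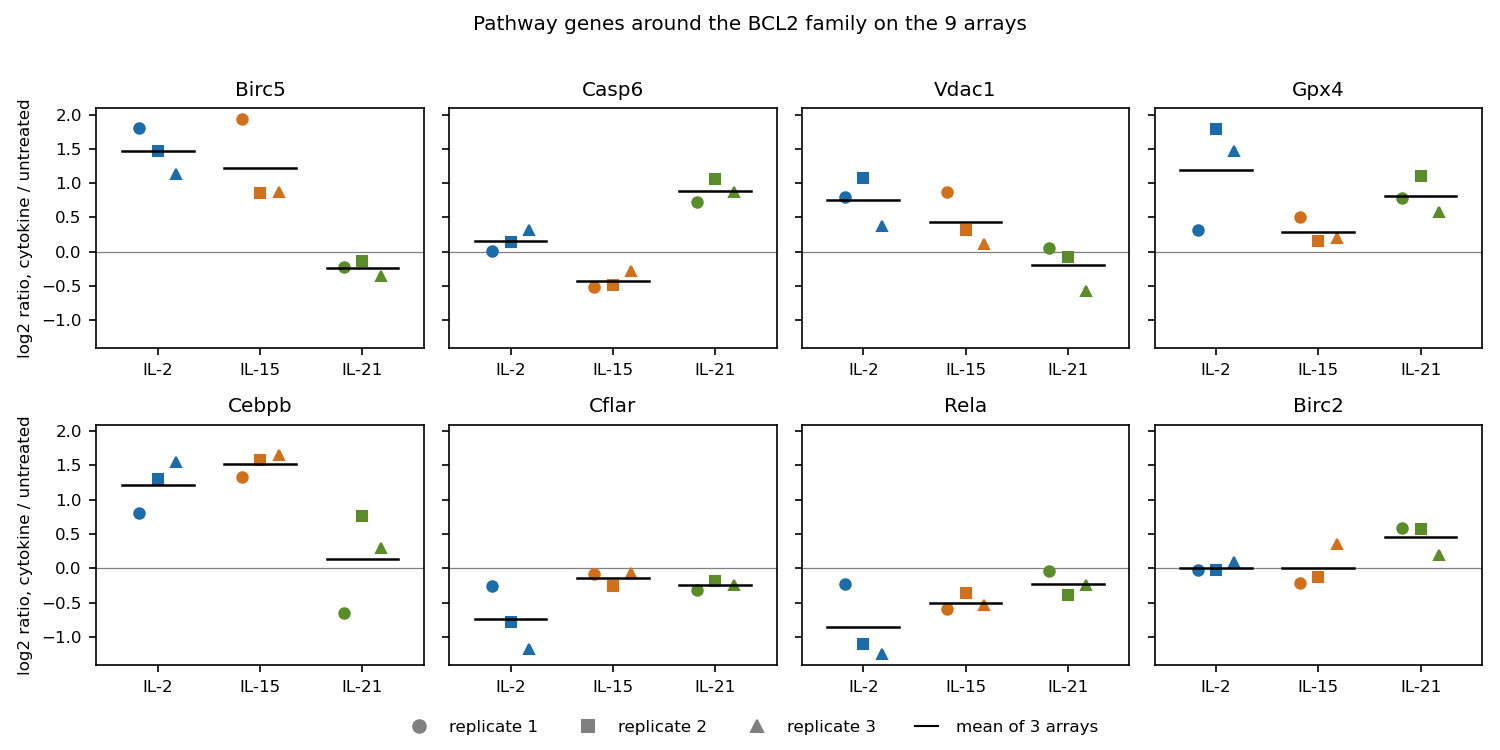
Log2 ratio of cytokine-treated over untreated cells (vertical axis) for 8 pathway genes by cytokine, where each point is 1 array, its shape gives the replicate number and the black line is the mean of 3 arrays. Casp6 lies between 0.72 and 1.06 with IL-21 and between -0.51 and -0.28 with IL-15, and Birc5 lies between 1.13 and 1.81 with IL-2 and below 0 with IL-21.

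The genes whose pattern was most like that of a member were found by Pearson's r over the 9 arrays, after the mean of each replicate number had been taken off. For Bcl2a1a they were Mpeg1 (r 0.98) and Mitd1 (r 0.97), for Bcl2l11 Cd27 (r 0.98) and Stx4a (r 0.98), and for Mcl1 Ikbkb (r 0.98) and Ngrn (r 0.98). Bcl2 had Prr16 and Map6d1 (both r 0.97) and Bcl2l1 had Vmn1r189 and Hnrnph1 (both r 0.98). Bak1 had Abca12 (r 0.97) and Cltrn (r 0.96), Bid had Olfr829 (r 0.99) and Lsr (r 0.98), and Bad had Cenpt and Olfr1109 (both r 0.99). Bbc3 had Olfr96 (r 0.98) and Tmem119 (r 0.97), and Pmaip1 had Sox17 (r 1.00) and Cyp2c70 (r 0.99). With 9 arrays and 17498 genes such values are a description only. Among the members themselves, Bbc3 and Pmaip1 were the most alike (r 0.93), and Bcl2l11 and Bad the most opposed (r -0.82).

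Ratios of 2 channels give no level, so the CD8+ label could not be checked for absent markers. The 7 measured CD8 T cell markers had array medians between -0.29 and 0.47. Medians lay between -0.23 and 0.23 for 4 B cell markers, between -0.28 and 0.41 for 4 myeloid and dendritic cell markers, between -0.17 and 0.10 for 3 CD4 T cell markers and between -0.41 and 0.52 for 3 NK cell markers. Erythroid markers had the widest range, from -1.10 to 0.71 over 3 genes, with 0.09 to 0.71 on the IL-21 arrays. In bulk RNA, fewer cells of a type and less RNA per cell cannot be told apart, and the part of other cells in the values of the members was not tested.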

How the data were processed

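Data came from 9 two-colour oligonucleotide arrays, 3 per cytokine. Groups and replicate numbers came from the sample titles. Amplified RNA carried amino allyl dye labels, per the labels' protocols. The authors deposited 1 signed value per probe and array for 36547 probes, from -8.01 to 8.78, taken as log2 ratios. A natural log cannot be told apart, and would rescale every change by one factor. For scanner, background correction and normalization the sources name nothing. Intensities were not used, so no filter on dim probes was possible.

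Probes were named through the platform annotation. Exactly 1 symbol was listed for 26926, several for 203 and none for 9418, 41 viral or bacterial control probes were left out, and probes of a gene were averaged. limma 3.58.1 in R 4.3.3 fitted a mean for each cytokine to the 9 arrays, without the replicate block. Cytokines were tested against 0 and against each other, two-sided, adjusted by Benjamini-Hochberg over 17498 genes at 0.05. Errors are limma's SE unless stated. A run of the fit on simulated data checked that the median estimate of a known change was close to it. Those simulated arrays shared no replicate or dye effect, so error rates in the real data were not tested. Deviations from the cytokine means correlated at 0.15 to 0.63 between arrays of one number. The numbers were therefore taken as pairing the arrays, and blocked values are given. These correlations were 0.58 to 0.63 in replicate 1, 0.15 to 0.29 in replicate 2 and 0.33 to 0.50 in replicate 3. Replicate 1 has the other stated dye orientation, and the part of the dye in them was not tested. The number of arrays limits the precision.

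Members and gene lists were chosen with earlier results of these data known. All members are named. From each list the named genes are those past the threshold and the 3 with the smallest unadjusted p in any comparison. For each member the 2 genes most like it are named. The labels state biological replicates but not their source.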

Additional observations from a re-analysis of the deposited data

Results flagged for a closer look

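Among the members and the named list genes, some were singled out because all 3 arrays of one cytokine lay above 0 and all 3 of another below 0. The share of all genes that meet this rule was not counted. With replicates 2 and 3 turned, the genes below would no longer meet it. Casp6 had a difference of 1.30 for IL-21 minus IL-15 and of -0.58 for IL-15 minus IL-2, and limma gave the latter an adjusted p of 1 (0.898 with the replicate block). Birc5 had differences of -1.70 for IL-21 minus IL-2 and -1.45 for IL-21 minus IL-15, the latter at an adjusted p of 0.227 (0.0819 with the block). Bcl2a1c had -0.62 for IL-21 minus IL-15, and Bnip3l had -0.66 for IL-15 minus IL-2. Groups of 3 arrays are too small to look for single arrays far from the rest.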

How the results depend on the processing

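No member passed under any alternative run. Without the sign turned, Bcl2a1a had -0.74 to -0.39 for IL-21 over 23 alternatives (adjusted p 0.104 to 1) and -0.74 to -0.32 for IL-21 versus IL-15 (0.188 to 1). It had -0.65 to -0.23 for IL-2 (0.0912 to 1) and 0.17 to 0.65 for IL-15 versus IL-2 (0.802 to 1). Bcl2l11 had 0.30 to 0.59 for IL-21 versus IL-2 (0.266 to 1), Mcl1 0.40 to 0.64 (0.325 to 1), and Pmaip1 0.25 to 0.57 for IL-2 (0.193 to 1). With replicates 2 and 3 turned, 43 of the 60 member values changed sign, among them Bcl2a1a for IL-21 (0.46) and Bcl2l11 for IL-21 (-0.10), with a smallest adjusted p of 0.408. Birc5 for IL-2 then had -0.26, also with the block, and its call was lost with quantile normalization (adjusted p 0.183) and with trend and robust (0.189), and with IL-2 replicate 1, 2 or 3 left out (0.0957, 0.136 and 0.121) or IL-21 replicate 2 or 3 left out (0.0627 and 0.0527). Fitting each probe alone gave member probes a smallest adjusted p of 0.366, or 0.104 with the block. Blocked fits without 1 replicate, with quantile normalization or with the sign turned were added after the data were seen, with smallest adjusted p values for members of 0.124, 0.361 and 0.25, of 0.107 and of 0.232.

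Genes called over the whole table, in the order IL-2, IL-15, IL-21, IL-21 versus IL-2, IL-21 versus IL-15 and IL-15 versus IL-2, were 140, 22, 0, 14, 3 and 0. They were 342, 122, 23, 92, 32 and 0 with the replicate block, 109, 29, 0, 201, 127 and 0 with it as a random block, 284, 170, 19, 90, 39 and 0 with a dye term, 29, 44, 1, 1, 1 and 0 with quantile normalization, 106, 24, 1, 10, 4 and 0 after centring, and 138, 22, 0, 17, 4 and 0 with the median of probes. The count was 0 in all 6 with the sign turned and with trend and robust. Without replicate 1 they were 69, 0, 0, 0, 0 and 0, and without replicate 2 or 3 all were 0. Leaving out 1 array gave 6 to 131 for IL-2, with 6 without IL-2 replicate 2 and 6 without IL-2 replicate 3, 0 to 16 for IL-15 and 0 to 47 for IL-21 versus IL-2. Blocked fits without 1 replicate called 0, the block with quantile normalization 294, 262, 17, 41, 12 and 0, and the block with the sign turned 0, 0, 1, 0, 0 and 0. The causes were not tested.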
